A study of Megathyrsus maximus with 33 samples.

Results

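The transcript c92877_g1 of Guinea grass is described here over 4 treatments, both time points and 16 field plots. It is 1 of 39208 transcripts in the deposited table of log2 values, and it was chosen by its annotation: the study's list pairs it with Arabidopsis At1g36160, acetyl-CoA carboxylase 1 (ACC1). That match is a sequence match of an assembled transcript to a protein of another species, so c92877_g1 is called the acetyl-CoA carboxylase homolog below. The study put it on that list because it had changed in the combined treatment at the second time point and correlated with leaf metabolites there. The correlations that the paper gives for it, with xylose and with sinapic acid, are negative. The values of c92877_g1 at that time point are therefore not independent evidence of a treatment effect. Neither deposited table holds another transcript of the same assembly component (0 transcripts in each), and no sequence or genome was used here.

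Acetyl-CoA carboxylase is the biotin-dependent enzyme that joins bicarbonate to acetyl-CoA and so makes malonyl-CoA. This is the committed step of fatty acid synthesis, and malonyl-CoA is also the building block for the elongation of long fatty acids, as in leaf waxes, and for flavonoids. In plants the enzyme occurs in the cytosol and in the plastid, where the fatty acids of the leaf membranes are made. ACC1 of Arabidopsis is the multidomain cytosolic form. Grasses use multidomain enzymes in the plastid as well, and the match to the Arabidopsis protein does not tell which of these forms c92877_g1 encodes.

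Guinea grass (Panicum maximum, also named Megathyrsus maximus) is a tropical C4 forage grass, and it was grown in an open field with CO2 fumigation and infrared canopy heaters. The 4 treatments were eCeT (600 ppm [CO2] with 2 °C of warming), eT (ambient [CO2] with 2 °C of warming), eC (600 ppm [CO2] at ambient temperature) and C (ambient [CO2] and temperature). Each treatment had 4 plots, numbered by ring 1 to 4, and the youngest fully expanded leaves of each plot were sampled at time point B (50 days as labelled) and at time point A (30 days), which gave 8 groups of 4 libraries. The sources date time point B differently, so its distance from A is uncertain, and time point is confounded with leaf age, season and the weather of the sampling days, which cannot be told apart. Fewer cells of a type in the leaf and less of the RNA per cell cannot be told apart in these bulk samples either.

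The 32 libraries held 6148491 to 15638548 reads on the 39208 transcripts. The most abundant transcript, c78052_g1, took 1.66% to 37.5% of a library's reads, and the scaled library size that the authors divided by was 0.614 to 1.42 times the reads. Of 4 photosynthesis transcripts that the study annotates, which stand here as markers of green leaf, 3 had reads in all 32 libraries and the other (c87432_g1) in 30. The homolog had 1012 to 12234 reads in a library, 0.012% to 0.10% of the total, so counting error was small beside the spread between plots. On the length-corrected scale its mean was 68.3 FPKM over the 29 usable libraries, which ranked it 1745 of 45073 transcripts, against a median transcript at 2.18 FPKM. It was therefore a well expressed gene of the leaf.

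**Figure D1:**
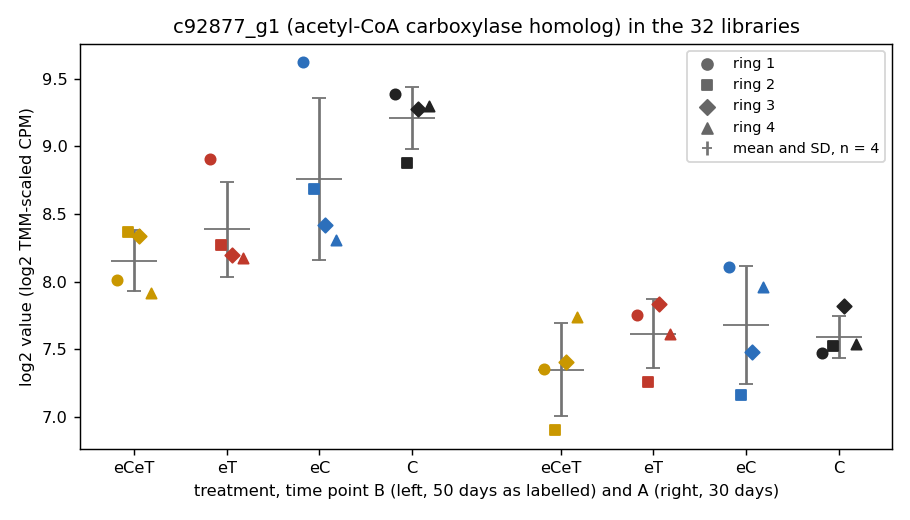
The log2 value of c92877_g1 (log2 of TMM-scaled counts per 1000000 reads, CPM) in each of the 32 libraries, by treatment at time point B (left) and A (right). Marker shapes give the ring, and grey bars the mean and SD of 4 plots. At B the eCeT plots (7.91 to 8.37) lie below all C plots (8.88 to 9.39), and at A the treatments overlap.

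The main feature of the homolog was its higher level at time point B than at A. Values are log2 of counts per 1000000 of the scaled library size (log2 CPM) unless another scale is named. In the 16 plots together it averaged 8.63 at B and 7.56 at A, a change of 1.07 ± 0.12 (SE), which is 2.10-fold (limma, adjusted p = 6.43e-08). It was higher at B in 16 of 16 plots, which 1.42% of all transcripts were, and the exact sign-flip permutation test over plots gave a two-sided p of 3.05e-05, the smallest it can give. Of all transcripts 23.3% were called higher at B over the 4 treatments, so a higher level in itself was common. The split of the calls depended on the scaling, with 9121 transcripts higher and 7819 lower as deposited, and 7244 higher and 9686 lower with each library centred on its median. The homolog was higher at B under every scaling tried, between 0.92 and 1.37 on the log2 scale.

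In the C plots the level at time point B was 9.39, 8.88, 9.28 and 9.30 in rings 1 to 4, against 7.48, 7.52, 7.82 and 7.54 at A. The 2 sets of values are far apart, and the rise of 1.62 ± 0.23 (SE) was 3.07-fold (limma, adjusted p = 0.000299), rank 9 of all transcripts by p in that contrast. The C libraries of time point B are among those on which the study listed the transcript, so this rise and rank are a description. Of all transcripts 6.78% were called higher in C. In the FPKM table, where 3 of the 8 columns of C were left out, the rise was 1.35 and did not pass (adjusted p = 0.160). In scaled CPM the C plots averaged 598 ± 88.2 at B and 194 ± 21.8 at A (SD, n = 4 each).

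In the eC plots the level was 9.62, 8.68, 8.42 and 8.31 at B, against 8.11, 7.16, 7.48 and 7.96 at A. Ring 1 was the highest library of the whole series at B and ring 4 had the smallest rise of the eC plots, 0.35. The mean rise was 1.08 ± 0.23 (limma, adjusted p = 0.00558), where 5.68% of all transcripts were called higher. The study's correlations with metabolites drew on the eC libraries of time point B, so this rise is a description.

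In the eT plots the level was 8.91, 8.27, 8.19 and 8.18 at B, against 7.76, 7.26, 7.83 and 7.61 at A. Again ring 1 stood above the other plots at B. The mean rise was 0.77 ± 0.23 (limma, adjusted p = 0.0360), and 6.35% of all transcripts were called higher. The correlations by which the study listed the transcript drew on the eT libraries of B, so this rise is a description. Without ring 1 at B the rise was 0.60 and no longer passed the threshold of 0.1 (adjusted p = 0.163), and the same held without ring 2 at A (0.65, adjusted p = 0.120) and in the FPKM table (0.71, adjusted p = 0.150).

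In the eCeT plots the level was 8.01, 8.37, 8.33 and 7.91 at B, against 7.36, 6.90, 7.40 and 7.74 at A. Ring 4 differed least, by 0.17, and ring 2 most, by 1.47. The mean rise was 0.81 ± 0.23 (limma, adjusted p = 0.0656), and 2.14% of all transcripts were called higher. This call was lost without ring 1, 2 or 3 at A or without ring 2 or 3 at B, where the rise was 0.66 to 0.82 with an adjusted p of 0.113 to 0.189. With the counts scaled only by library totals the rise was 0.55 (adjusted p = 0.326). The study also listed the transcript on the eCeT libraries of time point B, so this rise is a description too.

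Within each treatment the 4 values at B lay above the 4 values at A without overlap. This held in C for 7.01% of all transcripts, in eC for 6.37%, in eT for 6.68% and in eCeT for 5.12%, and in all 4 treatments at once for 0.199%, which is 78 transcripts with the homolog among them. Across treatments the 2 time points did overlap, because the highest eC plot at A (8.11) exceeded the lowest eCeT plots at B. An exact test within 1 treatment cannot go below a p of 0.125 with 4 plots, and it gave 0.125 in each.

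**Figure D2:**
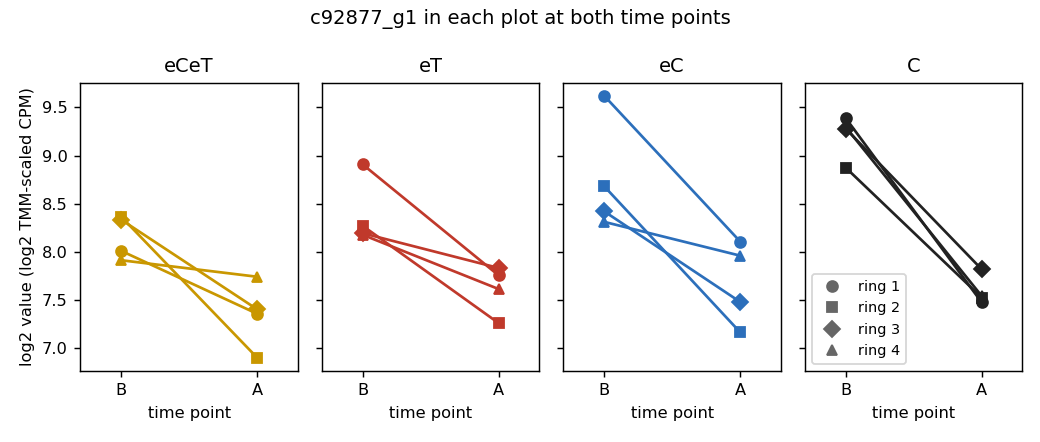
The log2 value of c92877_g1 in each plot at time points B (left) and A (right), 1 panel per treatment, with a line joining the 2 libraries of a plot. All 16 plots are higher at B, by 0.17 to 1.91.

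The size of the rise differed among plots. It was 0.17 to 1.47 in the 8 warmed plots (eCeT and eT), with a mean of 0.79 ± 0.43, and 0.35 to 1.91 in the 8 unwarmed plots (eC and C), with a mean of 1.35 ± 0.50 (SD). The 2 ranges overlap. As a single value this difference of -0.56 had a two-sided exact permutation p of 0.0323 over plots (0.145 adjusted over 18 exact tests), but the limma interaction of time and warming did not pass over all transcripts (unadjusted p = 0.0218, adjusted p = 0.834). No transcript was called in that interaction by limma (0.0%), with 2310 at an unadjusted p under 0.05, and none by voom on the recovered reads. This contrast and those of the rises against C use libraries of time point B on which the study listed the transcript, so their values are a description. The eT plots (0.36 to 1.15) and the C plots (1.35 to 1.91) did not overlap in their rise, with an exact permutation p of 0.0286 (0.145 adjusted), the smallest that 4 against 4 plots can give. The eCeT plots overlapped C through ring 2 (exact permutation p = 0.0857), and the eC plots overlapped C too (exact permutation p = 0.171).

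At time point B the homolog was lower in eCeT than in C. The eCeT plots had 8.01, 8.37, 8.33 and 7.91 and the C plots 9.39, 8.88, 9.28 and 9.30, so all eCeT plots were lower than all C plots. In scaled CPM the means were 288 ± 45.0 in eCeT and 598 ± 88.2 in C (SD, n = 4 each). The change of -1.06 ± 0.23 (SE) is a level 0.481 times that of C, with a 95% interval of -1.53 to -0.58 and an adjusted p of 0.0653 (limma). Only 0.0434% of all transcripts, 17 in number, were called lower in this contrast, against 0.265% called higher, and 2.34% had all eCeT plots lower than all C plots. The study selected the transcript on this contrast, so these values describe it and do not support it. The exact permutation p of the single value was 0.0286, the smallest possible, and 0.145 after adjustment over the 18 exact tests of this kind. The split of the calls depended on the scaling, with 104 transcripts higher and 17 lower as deposited, 6 higher and 3 lower without TMM scaling and 1 higher and 7 lower in the FPKM table.

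The call was close to its threshold. It was lost without eCeT ring 1, 2 or 4 or without C ring 3 or 4, each at time point B, where the change was -1.13 to -0.97 and the adjusted p 0.131 to 0.223. None of the other 27 omissions ended it. The 2 libraries with the largest share of c78052_g1 at B, 37.5% in eCeT ring 4 and 35.2% in C ring 3, were also those with the smallest scaled size, 0.614 and 0.699 times their reads. In CPM on the unscaled library totals the homolog still separated the groups, with 148 to 373 in eCeT and 434 to 750 in C, although the test on that scale gave an adjusted p of 0.268 for a change of -1.14. In the FPKM table the change was -1.08 (adjusted p = 0.739).

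Against C at B, neither eT nor eC passed the test. The study's correlations with metabolites drew on the eT and eC libraries of B too, so these contrasts are a description. The eT plots averaged 8.39 ± 0.35 and the C plots 9.21 ± 0.23 (SD, n = 4 each), a change of -0.82 ± 0.23 (SE) with an adjusted p of 0.391, in a contrast where limma called 0.0179% of all transcripts. Of the eT plots 3 lay below all C plots, and only eT ring 1 (8.91) reached into the range of C, just above C ring 2 (8.88); the exact permutation p was 0.0571. The eC plots averaged 8.76 ± 0.60, a change of -0.45 ± 0.23 against C (adjusted p = 0.779). limma called 0.0% of all transcripts there, with 2553 at an unadjusted p under 0.05 and none by voom. Of the eC plots 3 lay below all C plots, and ring 1 lay above all of them. The order of the means at B was thus eCeT, eT, eC and C from low to high. Of the neighbours in that order, eCeT and eT differed by -0.23 (95% interval -0.71 to 0.24), and their plots overlapped. The eT and eC plots overlapped as well, and so did eC and C. The test of the eCeT plots against the eC plots gave -0.60 (95% interval -1.08 to -0.13, adjusted p = 0.887, exact permutation p = 0.0857). Both contrasts with eC depended on its ring 1, without which eCeT against eC was -0.32 and eC against C was -0.74, and without TMM scaling they were -1.02 and -0.12.

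**Figure D3:**
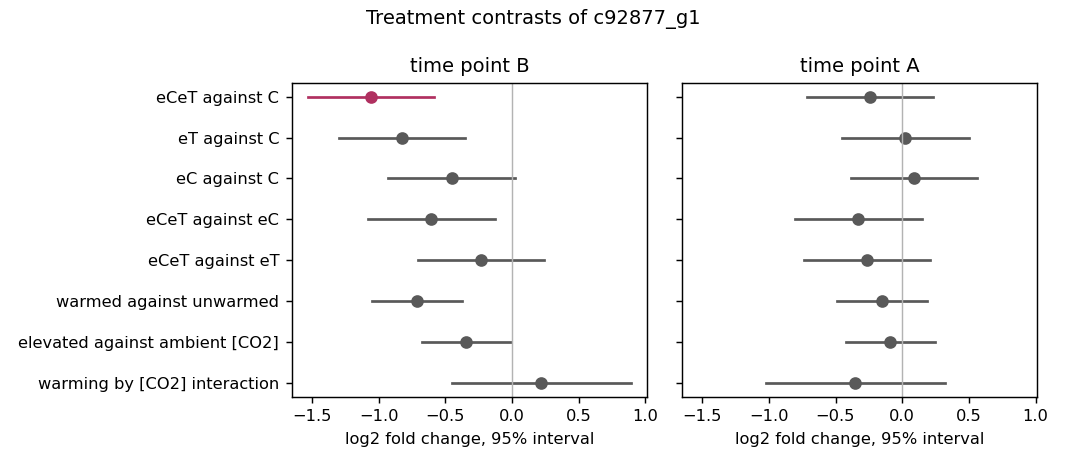
Treatment contrasts of c92877_g1 as log2 fold changes with 95% intervals from limma, at time point B (left) and A (right), with the contrast that passed an adjusted p of 0.1 in red. At B the change of eCeT against C is -1.06 and the estimates of all contrasts but the interaction lie below 0. The intervals of eC against C, eCeT against eT and the interaction include 0 at B, and at A every interval includes 0.

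When the 8 warmed plots were set against the 8 unwarmed plots at B, the homolog had lower values in the warmed plots. The warmed plots had a median of 8.23 (7.91 to 8.91) and the unwarmed plots a median of 9.08 (8.31 to 9.62). The change was -0.71 ± 0.16 (SE), 5 of 8 warmed plots lay below all unwarmed plots, and the exact permutation p of the single value was 0.00497 (0.0895 adjusted over the 18 exact tests). The study listed the transcript by eCeT against C and by correlation with metabolites over the treatments at B. The value is therefore not independent evidence of an effect of warming. Over all transcripts it ranked 32 by p but did not pass (unadjusted p = 0.000138, limma adjusted p = 0.153), where 0.0459% were called. It passed when 1 of 4 libraries was left out (eT ring 1, C ring 2, eCeT ring 3 or eC ring 4, each at B), with an adjusted p of 0.0477 to 0.0797. The difference between elevated and ambient [CO2] was -0.34 ± 0.16 (adjusted p = 0.821, exact permutation p = 0.209), with a median of 8.35 in the elevated and 8.89 in the ambient plots. The interaction of both factors at B was 0.22 (95% interval -0.45 to 0.89), and its sign depended on the scaling.

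**Figure D4:**
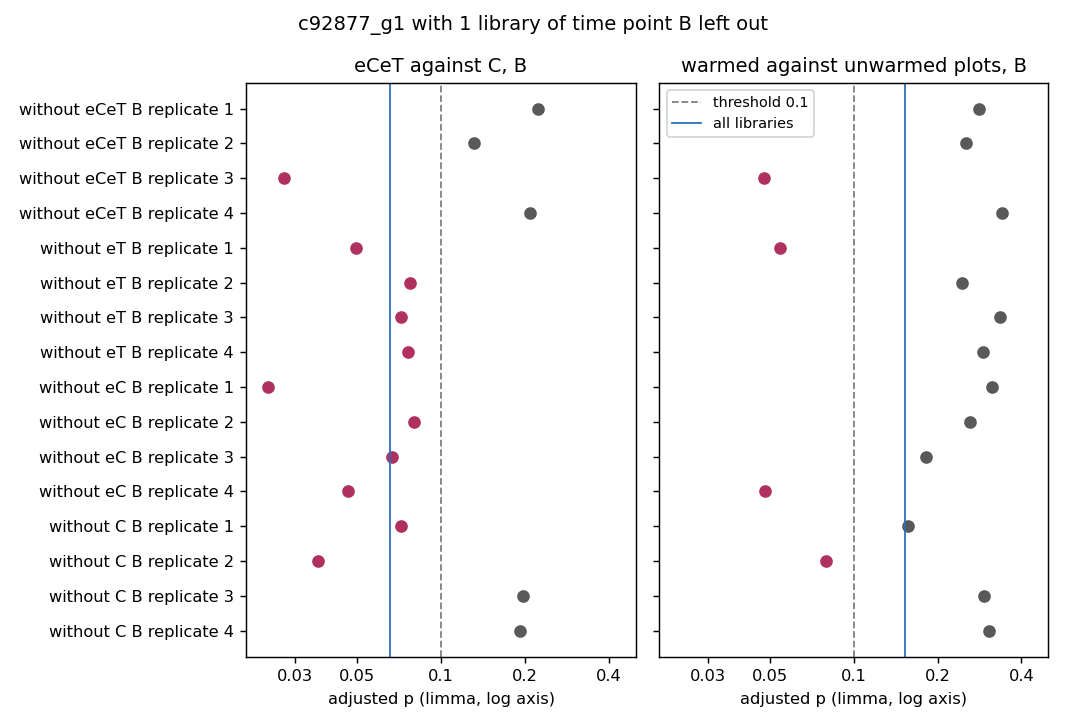
Adjusted p (limma, log axis) of c92877_g1 with 1 library of time point B left out at a time, for eCeT against C (left) and for warmed against unwarmed plots (right). The dashed line is the threshold of 0.1 and the blue line the value with all libraries (0.0653 and 0.153). Points in red pass the threshold, and both panels also hold points that do not. The replicate number is the ring.

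At time point A no treatment contrast of the homolog passed. The means were 7.35 ± 0.35 in eCeT, 7.61 ± 0.25 in eT, 7.68 ± 0.43 in eC and 7.59 ± 0.16 in C (SD, n = 4 each), so that the order from low to high was eCeT, C, eT and eC, and all neighbours in it overlapped. The change of eCeT against C was -0.24 (95% interval -0.71 to 0.23, adjusted p = 0.740), although 1.4% of all transcripts were called in this contrast. The lowest eCeT plot, ring 2 at 6.90, was the lowest library of the series. The warmed plots averaged 7.48 ± 0.31 and the unwarmed plots 7.63 ± 0.31 (SD, n = 8 each), a change of -0.15 (95% interval -0.49 to 0.18, adjusted p = 0.720), where 3.77% of all transcripts were called. The intervals leave room for a change at A of up to 0.71 downward in eCeT. The change of eCeT against C at B minus that at A was -0.82 (95% interval of the difference -1.49 to -0.14), and this difference did not pass over all transcripts (unadjusted p = 0.0188, adjusted p = 0.736).

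No relation between the 2 time points was detected among plots of a group. Over the 16 plots the deviation from the group mean at B and the deviation at A had a Pearson's r of 0.177 (permutation p = 0.707 within groups) and a Spearman's rho of -0.0206 (p = 0.956). Without the 2 plots farthest from the median r was 0.303. Within groups the homolog was somewhat more variable than transcripts of like abundance, with a residual SD of 0.35, against a median of 0.271 for 305 transcripts within 0.5 of its mean log2 value, of which 75.7% were less variable.

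The photosynthesis transcripts also had lower values in eCeT than in C at B, and their part in the result for the homolog was not tested. The light-harvesting gene of photosystem I (c82081_g1) averaged 4.55 in eCeT and 5.39 in C at B, a change of -0.84 (limma adjusted p = 0.346). The change was -1.27 for c84013_g1 (adjusted p = 0.188), which acts in cyclic electron flow, -1.43 for plastocyanin (c66714_g1, adjusted p = 0.414) and -1.50 for c87432_g1 (adjusted p = 0.471). Thus 4 of 4 had a negative value, where the median of all transcripts was -0.02, and 0 of 4 were called, where 0.0434% of all transcripts were called lower. Reads in a library were few for c87432_g1 (0 to 29) and for plastocyanin (4 to 197). Plastocyanin was higher in eT (1.98) than in C (1.62) at B. Over time c82081_g1 rose by 0.76, c84013_g1 by 1.14 and c87432_g1 by 1.11, whereas plastocyanin fell by 0.94, each called by limma, where 23.3% of all transcripts were called higher and 19.9% lower.

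No other enzyme of fatty acid synthesis was analysed here, and the homolog was set beside the 25 other transcripts of the study's list. The study chose that list on these samples by eCeT against C at B and by correlation with metabolites at B. The counts of the list in that contrast are therefore no independent evidence of direction. There 22 rose and 1 fell (0.265% and 0.0434% of all transcripts), with a median of 1.03 against -0.02 for all transcripts, and the homolog was on the side of the few. These 23 calls were sensitive to the settings: 3 were made without TMM scaling, 1 in the FPKM table, 1 with only the groups compared and 9 without a variance trend. With 1 library of time point B left out, 9 were made without eCeT ring 1, 10 without eCeT ring 2, 6 without eCeT ring 4, 9 without C ring 3 and 11 without C ring 4. The other that fell was c85810_g1 (-1.26, adjusted p = 0.0978), which has no annotation in the list. c92321_g2, annotated as related to a reverse transcriptase, had -1.97 and was not called (adjusted p = 0.115). Both had low levels, with a mean of 1.64 FPKM for c85810_g1 and 0.594 FPKM for c92321_g2.

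Over the 2 time points 19 of the 25 were lower at B and 2 higher (19.9% and 23.3% of all transcripts), with a median of -0.58 against 0.05 for all. The 2 that were higher at B were c85810_g1 (0.37) and c92321_g2 (0.82). In eCeT against C at A 7 of the 25 rose and 0 fell (0.436% of all transcripts rose), where the homolog had -0.24. For warming at B 9 rose and 0 fell (0.0459% of all transcripts rose), where the homolog had -0.71. Warming at B and the change over time include the libraries of B on which the list was chosen. Their counts are therefore no independent evidence of direction either. These comparisons share libraries, so each is given only as its own count.

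**Figure D5:**
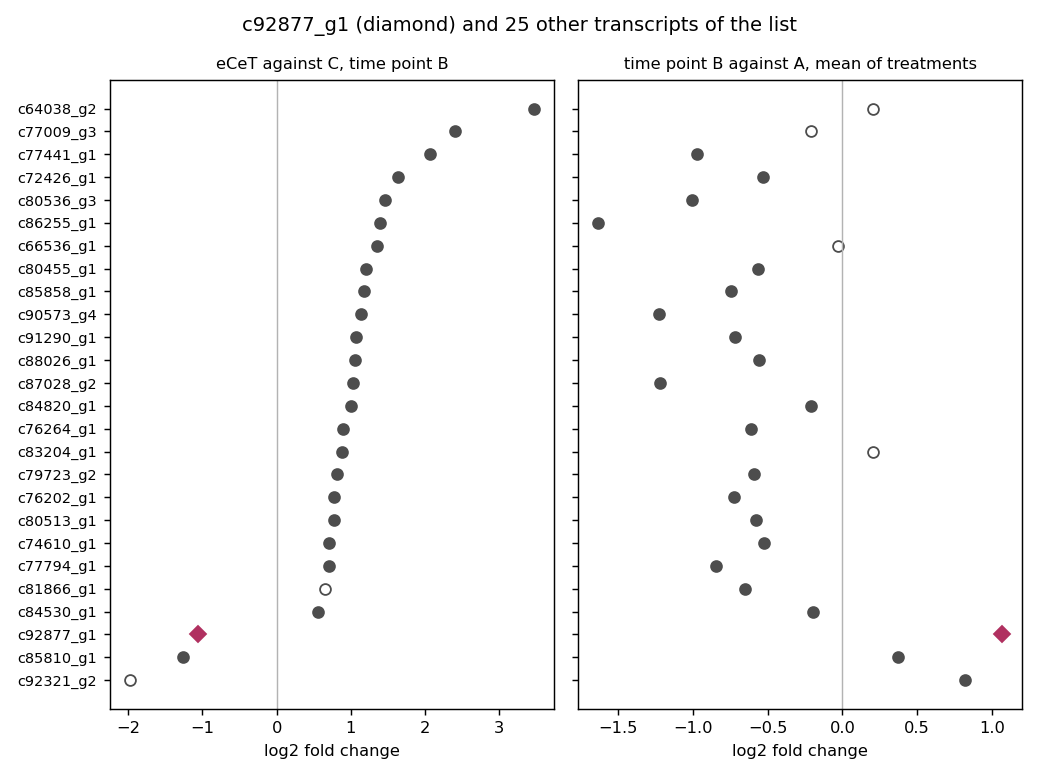
Log2 fold changes of c92877_g1 (red diamond) and the 25 other transcripts of the study's list, for eCeT against C at time point B (left) and for time point B against A over the 4 treatments (right). Filled points passed an adjusted p of 0.1. The homolog has -1.06 on the left, where 23 of the other 25 lie above 0, and 1.07 on the right, where 21 of them lie below 0. Both sides use libraries on which the study chose the list and the homolog.

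The study related several transcripts to leaf xylose beside this one, of which 4 are described. c72426_g1 is annotated as an NAD(P)-binding protein like cinnamoyl-CoA reductase, an enzyme of lignin synthesis. Its level at B was 1.99 ± 0.30 in eCeT and 0.36 ± 0.51 in C (SD, n = 4 each), a change of 1.63 (limma adjusted p = 0.0179), and its change over time was -0.53, lower at B than at A. Its reads at B were few, 35 to 58 in eCeT and 10 to 22 in C. With 5 reads added the change against C was 1.38 (limma adjusted p = 0.0198). The call against C was lost without TMM scaling (adjusted p = 0.107), in the FPKM table (0.513) and with only the groups compared (0.310). c77441_g1, annotated on a weak sequence match as a beta-galactosidase, had 4.44 ± 0.38 in eCeT and 2.37 ± 0.17 in C, a change of 2.07 (limma adjusted p = 0.0285). This call was lost without eCeT ring 2 (adjusted p = 0.124) or ring 4 (0.135) at B, in the FPKM table (0.529) and, narrowly, without a variance trend. Another transcript of the list with the same annotation, c77794_g1, had a smaller change of 0.70 (limma adjusted p = 0.0446).

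The 2 transcripts matched to Arabidopsis FLOWERING LOCUS T, whose protein carries the flowering signal from the leaf, varied widely between C plots. The match of both is that of the study's list. The paper's text names a FLOWERING LOCUS T and a TERMINAL FLOWER 1 transcript beside xylose. c64038_g2 had 4.33 ± 0.91 in eCeT and 0.86 ± 1.91 in C (change 3.47, limma adjusted p = 0.0215), and the C plots had as few as 3 reads. Without C ring 1 at B the change was 2.53, and the call was lost without eCeT ring 1 (adjusted p = 0.127) and with only the groups compared (0.408). c77009_g3 had 4.09 ± 0.88 in eCeT and 1.68 ± 1.59 in C (change 2.40, limma adjusted p = 0.0687). This call was lost without C ring 1, where the change was 1.62 (adjusted p = 0.110), without C ring 3 (0.139) and without eCeT ring 1 (0.270), 2 (0.169) or 4 (0.201), and also in the FPKM table, without a trend, with robust moderation and with only the groups compared (0.118 to 0.519). Neither was called over time, with 0.20 for c64038_g2 and -0.21 for c77009_g3.

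Among 22786 other transcripts with a mean log2 value of at least 0, those whose level followed the homolog most closely over the 32 libraries were c92197_g1 (r = 0.919), c96037_g1 (r = 0.910) and c93634_g2 (r = 0.880). Those that ran most opposite were c81854_g2 (r = -0.909), c92263_g3 (r = -0.906) and c80900_g2 (r = -0.901). These 32 points share the time points, the treatments and the scaling of each library, and 41 transcripts had an r over 0.8. After the 8 group means were removed, the closest were c80046_g2 (r = 0.744), c96065_g1 (r = 0.730) and c75486_g1 (r = 0.722), and the most opposite c75909_g1 (r = -0.733), c80900_g2 (r = -0.728) and c73288_g1 (r = -0.720). c80900_g2 thus ran opposite on both measures. None of these transcripts is annotated in the sources used here.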

How the data were processed

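Leaf RNA of 32 plot samples was sequenced (TruSeq libraries, HiSeq paired ends), and reads were called with CASAVA and bcl2fastq 1.8.4, per the submitters' processing notes. The authors assembled the transcripts de novo; the aligner and counter are not given in the sources used here. The deposited log2 values (39208 transcripts) are those of the authors' voom and TMM step: log2 of reads plus 0.5 per 1000000 of a scaled library size. Whole reads were recovered from them (100% within 0.02 of a whole number, for the 96.2% of values up to 1000 reads). The authors also deposited FPKM for 45073 transcripts, of which 29 columns were used; 3 columns of C carry contradictory headers and were left out. A pooled MiSeq library with no group was not analysed here.

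1 limma model (3.58.1, R 4.3.3) of 8 groups over 32 libraries, with an eBayes trend, was fitted to all transcripts, with Benjamini-Hochberg adjustment and the study's threshold of an adjusted p under 0.1. Plots are separate field plots, so within a time point the limma p-values measure the spread between plots, pooled over the 8 groups. The model had no plot term, so over time the libraries of a plot at B and A counted as separate units. Single values had two-sided exact permutation tests, 18 comparisons of the homolog and 5 over time, with Benjamini-Hochberg adjustment over the 18 where given. Permutations ran in Python 3.11.15 (scipy 1.17.1, numpy 2.4.6), tables in pandas 2.3.3, and figures were drawn with matplotlib 3.10.9. The fit was tested on simulated data. The design named a count test for count tables and limma for log2 values, and the second applied.

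Named transcripts are the homolog, the 3 most like and 3 most opposite by each of 2 correlations, and 4 of the transcripts the study related to xylose (c72426_g1, c77441_g1, c64038_g2 and c77009_g3). c77794_g1, c85810_g1 and c92321_g2 were named after their values were seen. The transcript, the lists and the tests were chosen with earlier results of these data known. The plot correlation over time and the fixed plot block were added after the files were opened. The same plots were sampled at B and A, but only 6 of 16 plots had deviations that correlated above 0.1 over all transcripts. Alternatives covered scaling, pseudocount, filter, table, variance model, samples, blocks, threshold and the omission of each library.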

Additional observations from a re-analysis of the deposited data

Results flagged for a closer look

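Among 44 sets of 4 plots, which are the 8 groups for the homolog and for 4 other transcripts related to xylose and the rise of the homolog in the 4 treatments, 6 had a plot far from the other 3 by Dixon's criterion, where chance gives about 1 group in 20. For c92877_g1 this was the highest eT plot at time point B, ring 1, at 8.91 on the log2 scale, where the other 3 plots lay between 8.18 and 8.27. For c72426_g1 the highest eT plot at A (2.33) and the lowest eC plot at B (0.469) stood apart, and for c77441_g1 the lowest eC plot at B (2.32). For c77009_g3 the lowest eT plot (3.37) and the highest eC plot (4.30), both at B, stood apart.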

How the results depend on the processing

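The rise over the 4 treatments kept its call under all 16 alternatives and all 32 omissions (0.92 to 1.37), as did the rise in eC (0.79 to 1.53).

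eCeT against C at B (-1.06) stayed lower throughout but did not pass without TMM scaling (-1.14, adjusted p = 0.268), in the FPKM table (-1.08 with a pseudocount of 1, -1.09 with 0.1), without a variance trend (-1.06, adjusted p = 0.158), with only the groups compared (-1.06, adjusted p = 0.281) or at a threshold of 0.05 (-1.06). With 1 library omitted it was -1.17 to -0.97. Warming at B passed with quantile normalization (-0.87, adjusted p = 0.0698), array weights (-0.74, adjusted p = 0.0318) and the ring number as a replicate block (-0.71, adjusted p = 0.0761), and ran from -0.80 to -0.57 over the omissions.

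The rise in eCeT did not pass without TMM scaling (0.55), in the FPKM table (0.45 and 0.46), without a trend (0.81) or at 0.05 (0.81), and was 0.66 to 0.94 over the omissions. The rise in eT did not pass in the FPKM table (0.71 and 0.72; 0.60 to 0.84 over the omissions), nor did that in C (1.35 and 1.37), where 3 control columns were left out. The cause was not tested.

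Differences near 0 changed sign. eT against C at A (0.02) was -0.092 with quantile normalization, -0.33 without TMM scaling, -0.17 in both FPKM settings, -0.032 with array weights and -0.048 to 0.14 over the omissions. eC against C at A (0.09) was -0.071 with quantile normalization, -0.24 without TMM scaling, -0.048 and -0.050 in the FPKM table and -0.055 to 0.26 over the omissions. eCeT against eT at A was 0.026 without TMM scaling. The interaction was 0.27 without TMM scaling and 0.040 and 0.041 in the FPKM table at A, and -0.23 without TMM scaling, -0.0065 and -0.0079 in the FPKM table at B. c64038_g2 over time was -0.038 and -0.18 in the FPKM table.

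The ring number was not a block in the main model. At B 12 of 24 pairs correlated above 0.1, and 12 of 16 libraries were most like their own number. Plots with the same number thus partly shared deviations at B. At A 2 of 24 pairs correlated above 0.1, and 6 of 16 libraries were most like their own number. With the ring number as a block 218 transcripts were called in eCeT against C at B, against 121 without it. The homolog had a limma adjusted p of 0.0314 there with the block. The plot as a fixed block ended no call of the homolog over time. Over all settings the calls ran from 2 to 782 in eCeT against C at B, 8 to 1050 in eCeT against C at A (549 in the main model), 0 to 461 for warming at B (18), 0 to 24 in eT against C at B (7), 313 to 1966 for warming at A (1477), and over time 68 to 6424 in C (5059), 2191 to 8085 in eC (4998), 2930 to 6754 in eT (5129), 315 to 4914 in eCeT (1751) and 11648 to 18052 over the treatments (16940). The study's own counts were 666 in eCeT at A, 71 in eCeT at B and 2 in eT at B. Voom on the recovered reads gave the same 666, 71 and 2. The study also called a few transcripts in eT at A, where voom on the recovered reads called 0. Over time the calls of the main model were 2657 higher and 2402 lower in C and 2228 higher and 2770 lower in eC, and without TMM scaling 972 and 2866 in C and 7490 and 595 in eC. Centring on the median moved the median of all transcripts by 0.15 in eCeT against C at B and by -0.16 over time in C, and omitting TMM scaling moved it by 0.43 over time in eC. Of the study's list 21 of 25 were called over time, and 18 to 22 over the alternatives; in eCeT against C at B 23 of 25 were called, and 1 to 25 over the alternatives. No other transcript of the component c92877 was found in the tables used here, so nothing could be computed for it.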
